A study of Mus musculus with 3 samples.

Results

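Cells carrying RNA of macrophage genes were selected from single-cell RNA libraries of the mouse dorsal pallial midline, the strip of embryonic forebrain around the cortical hem. A cell was kept as a member if it had at least 1000 genes and 2000 unique molecular identifiers (UMIs, each standing for 1 captured RNA molecule), at most 10% of them mitochondrial, and 10 or more UMIs summed over C1qa, C1qb, C1qc, Fcer1g and Tyrobp. Cells with 20 or more Ttr UMIs per 10000, with 8 or more Tubb3 and Stmn2 UMIs per 10000, or with more than 9 UMIs of Col1a1, Col1a2 and Col3a1 were left out. The rule found 162 members among 33001 cells. The levels of those 5 genes chose the members, so every level of a member against the other cells is a description and was not tested.

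The KO library came from pooled Gmnc-/- embryos of E12.5. Gmnc encodes geminin coiled-coil domain containing protein, which switches on the multiciliation programme. The WT libraries, 2 in number, were made from 1 cell suspension that pooled wild-type embryos of E11.5 carrying PGKCre and Rosa26YFP with wild-type embryos of E12.5 carrying Wnt3aCre and Rosa26tdTomato. PGKCre is active in all tissues and Wnt3aCre is active in the cortical hem, and each releases a fluorescent reporter. All embryos were C57BL/6J, and all libraries were made with droplet-based 3′ chemistry. The study compared the midline with and without Gmnc to follow Cajal-Retzius neurons, a neuron class born at the hem. The WT libraries are technical repeats of 1 suspension and were counted as 1 sample, so there was 1 sample per genotype and no replicate. No test was run and no p-value is given. Intervals are 95% exact intervals that cover counting error alone. Genotype, mix of stages, reporter alleles and software version go together and cannot be told apart.

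Microglia are the macrophages of the brain tissue itself. They come from yolk sac progenitors that enter the neural tube early in gestation, and they live on signalling through the receptor Csf1r. Border-associated macrophages share that origin and settle in the meninges, around vessels and in the choroid plexus, where they carry the mannose receptor Mrc1. Both engulf dying cells and make complement component C1q, whose chains are encoded by C1qa, C1qb and C1qc. Tyrobp and Fcer1g encode adaptor proteins that pass on signals from activating receptors such as Trem2.

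The KO library held 15375 cells that passed the limits on genes, UMIs and mitochondrial share, WT library 1 held 9468 and WT library 2 held 8158. Summed over all barcodes, the libraries had 259403297, 148073906 and 139978761 UMIs. The WT libraries shared 1914 cell barcodes, of which 52 passed the limits in both, and the smaller copy had a median of 2.33% of the UMIs of the larger. No barcode was a member in both. There were 11 WT members with a copy in the other WT library, at 508 to 1060 UMIs, and none of these copies passed the limits. The KO library shared 78 barcodes with WT library 1 and 42 with WT library 2, none of them a member. Gmnc itself had 42.9 CPM (UMIs of a gene divided by all UMIs of the summed cells, scaled to the usual per-million unit) in other cells of the KO library, against 29.9 and 31.2 CPM in WT libraries 1 and 2. The members held 4 Gmnc UMIs in the KO library, and 1 UMI in each WT library. The deleted stretch was not given in the sources used here, and 3′ tags of Gmnc therefore check nothing about the genotype.

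Members were rare in every library. They numbered 90 of 15375 cells in the KO library, a share of 0.585% (interval 0.471 to 0.719%), against 39 cells in WT library 1, 0.412% (0.293 to 0.563%), and 33 cells in WT library 2, 0.405% (0.279 to 0.568%). The share in the KO library was 1.43 times the mean WT share, and its interval overlapped both WT intervals. Without cells whose barcode was in another library the ratio was 1.52. With the mitochondrial limit at 5% it was 2.20, and the lowest ratio under any setting tried was 1.22. The median mitochondrial share was 3.68% in KO members, against 5.52% and 5.09% in WT members. The limits on Ttr, neuron genes and collagens removed 13 cells in the KO library, and 2 and 3 in WT libraries 1 and 2.

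The 5 selecting genes separated members from other cells with few cells between in the WT libraries, and less cleanly in the KO library. Members had a median of 95.5 UMIs of these genes in the KO library, against 146 and 107 in WT libraries 1 and 2. The lowest members had 10, 12 and 10 UMIs, and 7, 1 and 3 members lay just inside the limit, at 10 to 14 UMIs. Just outside it, at 3 to 9 UMIs, lay 66 cells of the KO library, against 8 and 9 of the WT libraries. Of the other cells, 96.9% in the KO library and 98.2% and 98.7% in the WT libraries had no UMI of the 5 genes. All 5 genes were detected in 85 of 90 KO members, and in 35 of 39 and 27 of 33 WT members. A KO member had a median of 11824.5 UMIs, against 15020 and 14904 in WT members.

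RNA of other macrophage genes followed the selection. A gene was called higher or lower by size alone: the side with more RNA had to reach 20 UMIs and 20 CPM, and the difference, with 1 CPM added to both sides, had to be 2-fold in the same direction in each of the 3 libraries. Of 7140 genes with enough UMIs, 771 were higher in members than in other cells (10.8%) and 486 were lower (6.81%), and the median log2 ratio over all of them was -0.28. Because the same RNA chose the cells, these shares describe the members and support nothing beyond that.

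Receptors and adaptors stood among the largest ratios. Csf1r, the receptor for colony stimulating factor 1 and interleukin 34, had 398 CPM in KO members, against 688 and 598 CPM in WT members, and at most 0.38 CPM in the other cells of any library. Cx3cr1, the receptor for the chemokine fractalkine, had 630 CPM in KO members, against 609 and 462 CPM in WT members. Trem2, a lipid-sensing receptor, had 278 CPM in KO members, against 406 and 298 CPM in WT members. Among 17 measured receptors and adaptors, 15 were higher in members, with a median log2 ratio of 6.99. Tgfbr1 and Cxcr4 were not called.

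The transcription factors of the myeloid lineage were present with them. All 11 measured factors were higher in members, with a median log2 ratio of 4.77. Spi1, which encodes PU.1, the factor that macrophages need to form, had 176 CPM in KO members, against 453 and 450 CPM in WT members, and at most 0.22 CPM in other cells. Irf8, its partner in microglia, had 131 CPM in KO members, against 221 and 179 CPM in WT members. Sall1, a factor of adult microglia, was at 28.2 CPM in KO members, against 40.3 and 3.90 CPM in WT members, while the other cells had 19.7 CPM in the KO library, against 16.2 and 16.5 CPM. Sall1 was thus not called.

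Genes for digestion and iron handling were high as well. Of 17 lysosome genes, 16 were higher in members, with a median log2 ratio of 3.65, and Npc2 was the exception. The protease gene Ctsb had 1362 CPM in KO members, against 1499 and 1242 CPM in WT members. All 8 measured genes of iron and haem handling were higher, among them the iron exporter Slc40a1 at 99.0 CPM in KO members, against 64.5 and 74.1 CPM in WT members. Apoe, which carries lipids, had 4709 CPM in KO members, against 4648 and 3996 CPM in WT members, and 49.8 CPM in other KO cells, against 29.3 and 29.1 CPM in other WT cells. The chemokine and cytokine list had 13 of 13 measured genes higher, including Ccl3 and Ccl4, which attract other leukocytes. Ccl4 stood at 251 CPM in KO members, against 327 and 236 CPM in WT members.

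Smaller lists gave the same picture in part. Higher in members were 8 of 10 measured engulfment genes, 8 of 9 genes of complement and scavenger receptors, 10 of 12 genes of the lipid and axon tract list, 4 of 5 interferon genes and 2 of 3 genes of antigen presentation. The engulfment receptor Mertk, which binds Gas6 on dying cells, had 34.2 CPM in KO members, against 25.8 and 13.7 CPM in WT members. Its relative Axl was not called, at 22.8 CPM in KO members, against 43.5 and 11.7 CPM, with 11.45 CPM in other KO cells, against 15.3 and 15.5 CPM. Of 9 measured genes of hypoxia and glycolysis only Hmox1, a haem oxygenase that is also on the iron list, was higher.

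Markers of other white blood cells and of megakaryocytes were above the level of other cells in members, while markers of neural cells and red cells were below it. The 7 haemoglobin genes reached 41.6% of the level of other cells in KO members, against 1.22% and 1.36% in WT members. The 6 lymphocyte genes summed to 8.998 CPM in KO members, against 11.3 and 11.7 CPM in WT members, with 3, 4 and 4 of the 6 at 0, and to 0.306 CPM in other KO cells, against 0.251 and 0.257 CPM in other WT cells. Most of it was Il7r and Nkg7, and the T cell genes Cd3d and Cd3e had no UMI in any member. The 7 megakaryocyte genes summed to 124 CPM in KO members, against 70.9 and 85.8 CPM in WT members, and to less than 3 CPM in other cells of each library, and Plek, a substrate of protein kinase C found in many blood cells, made up 118, 67.7 and 83.8 CPM of it. Mpo and Prtn3, genes of granulocyte precursors, and the monocyte genes Ccr2 and Plac8 were called higher in members. No gene of the lymphocyte, mesenchyme or endothelium lists had enough UMIs to be called. The 8 endothelium genes summed to 18.6 CPM in KO members, against 16.1 and 23.4 CPM in WT members, and to 23.1 CPM in other KO cells, against 11.6 and 11.8 CPM in other WT cells. The 7 neuron genes with enough UMIs were all lower in members than in other cells, Tubb3 and Stmn2 in part by the rule. The 8 neural progenitor genes summed to 953 CPM in KO members, against 474 and 298 CPM in WT members, and 1890 CPM in other KO cells, against 1618 and 1634 CPM in other WT cells. Neural RNA therefore reached 50.4% of the level of other cells in KO members, against 29.3% and 18.2% in WT members. How it lay over single members is given with the genotype comparison, which it touches.

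Promoters of the top genes were read for the short motif GAGGAA, a form of the purine-rich sequence bound by PU.1, on both strands, so that TTCCTC counts as well. The window was the 200 bases before the start site in the RefSeq promoter table of GRCm38.p6, the build that mm10 names. Of the 20 genes with the largest ratio in their lowest library, 15 were in the table, with 18 promoters between them. The motif was in 12 of these 18 promoters, 66.7%, and in 6250 of all 32851 promoters, 19.0%. Selecting genes are among those counted, C1qb and C1qc with the motif and Fcer1g without it. F13a1 and Arhgdib count with multiple promoters each. Because the members' own RNA ranked the genes, these shares are a description, and enrichment of the motif was not tested. Of the 18, 6 are printed to show genes of both macrophage kinds described here with the motif, and Cx3cr1 without it. Each reads 5′ to 3′ on the gene's strand and ends at the base before the start site, with the motif in capitals.
C1qb, a C1q chain, minus strand, chr4:136886201-136886400: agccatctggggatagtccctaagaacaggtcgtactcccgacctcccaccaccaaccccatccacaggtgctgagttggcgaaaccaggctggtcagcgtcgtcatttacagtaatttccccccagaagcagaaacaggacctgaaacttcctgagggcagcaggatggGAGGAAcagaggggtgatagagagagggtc
Trem2, plus strand, chr17:48346201-48346400: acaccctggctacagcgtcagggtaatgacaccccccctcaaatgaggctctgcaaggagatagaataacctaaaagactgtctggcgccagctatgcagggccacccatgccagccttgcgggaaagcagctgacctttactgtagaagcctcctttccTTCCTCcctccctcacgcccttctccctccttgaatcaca
Aif1, the actin-binding protein IBA1, minus strand, chr17:35176053-35176252: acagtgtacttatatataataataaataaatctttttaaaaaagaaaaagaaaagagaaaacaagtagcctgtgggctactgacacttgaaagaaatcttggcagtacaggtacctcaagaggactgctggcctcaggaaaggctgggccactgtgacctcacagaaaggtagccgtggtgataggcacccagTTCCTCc
Mrc1, plus strand, chr2:14229214-14229413: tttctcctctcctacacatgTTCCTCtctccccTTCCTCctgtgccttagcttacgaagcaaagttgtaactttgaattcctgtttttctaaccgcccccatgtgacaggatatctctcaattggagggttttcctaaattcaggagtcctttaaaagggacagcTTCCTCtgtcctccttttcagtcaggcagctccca
Pf4, the chemokine platelet factor 4, plus strand, chr5:90772235-90772434: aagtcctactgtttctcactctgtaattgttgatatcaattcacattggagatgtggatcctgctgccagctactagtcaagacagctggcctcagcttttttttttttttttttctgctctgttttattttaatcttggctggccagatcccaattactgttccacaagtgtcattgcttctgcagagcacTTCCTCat
Cx3cr1, minus strand, chr9:120068297-120068496: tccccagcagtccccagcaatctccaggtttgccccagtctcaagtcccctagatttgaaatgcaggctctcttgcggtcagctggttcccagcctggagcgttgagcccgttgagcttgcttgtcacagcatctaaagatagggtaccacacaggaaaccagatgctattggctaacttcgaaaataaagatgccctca
The motif lay 30 bases before the start of C1qb, 40 before Trem2, 7 before Aif1 and 8 before Pf4, counted from its first base. Mrc1 had 3 matches, at 180, 167 and 35 bases. A match is a run of letters, not a bound site, and the window of Cx3cr1 shows that these letters are missing there and no more.

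Members differed among themselves in the RNA of border-associated macrophages. Mrc1 and Pf4 together had 0 UMIs in 39 KO members, and in 22 and 19 WT members, while 38 KO members, and 11 and 10 WT members, had 10 or more. Few lay between. Members with 5 or more UMIs of the pair are called Mrc1/Pf4 members here, a limit chosen after the values were seen. They numbered 44 of 90 in the KO library, 48.9% (38.2 to 59.7%), against 12 of 39 in WT library 1, 30.8% (17.0 to 47.6%), and 12 of 33 in WT library 2, 36.4% (20.4 to 54.9%).

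**Figure D1:**
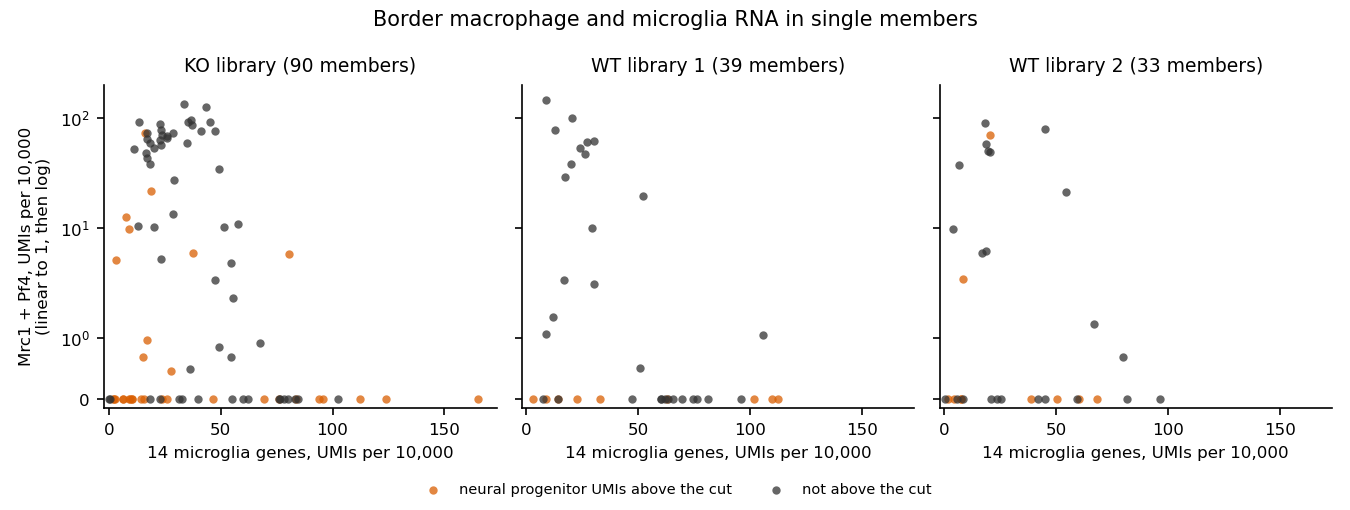
Each point is a member, with the summed UMIs of 14 microglia genes per 10000 on the x axis and those of Mrc1 and Pf4 per 10000 on the y axis, linear up to 1 and logarithmic above, in the KO library, WT library 1 and WT library 2. Members with neural progenitor UMIs above the limit described in the text are orange, and a row of members lies at 0 Mrc1 and Pf4 in each panel (39, 22 and 19 members).

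As a share of all cells, Mrc1/Pf4 members made up 0.286% (0.208 to 0.384%) of the KO library, against 0.127% (0.0655 to 0.221%) and 0.147% (0.0760 to 0.257%) of WT libraries 1 and 2. The remaining members made up 0.299% (0.219 to 0.399%) of the KO library, against 0.285% (0.188 to 0.415%) and 0.257% (0.159 to 0.393%). The intervals of KO and WT overlapped in both subsets. The Mrc1/Pf4 share of members was 15.3 percentage points higher in the KO library than in the mean of the WT libraries, and lay between 12.53 and 21.4 points under every setting tried. Collagen-rich cells, of more than 9 collagen UMIs, numbered 230 of 15375 cells in the KO library, against 80 of 9468 and 76 of 8158 in the WT libraries. Ttr-rich cells, of at least 20 Ttr UMIs per 10000, numbered 2220, against 1074 and 970, of the same totals. The part of these surrounding tissues in the Mrc1/Pf4 share was not tested.

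**Figure D2:**
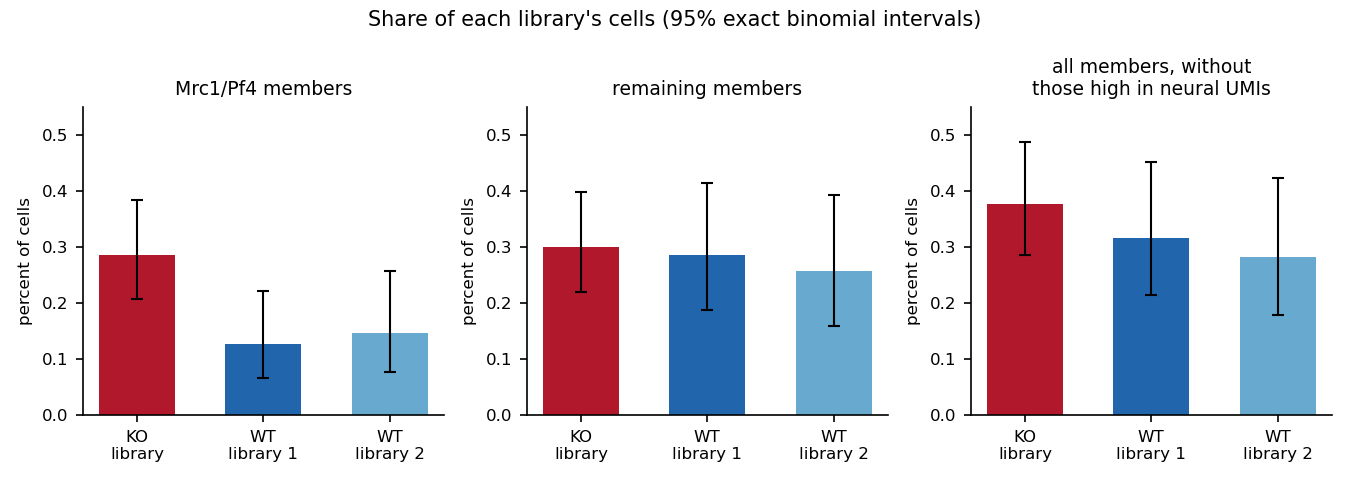
Bars give the percent of each library's cells that were Mrc1/Pf4 members, remaining members, or members without those high in neural progenitor UMIs, with exact 95% binomial intervals, for the KO library and WT libraries 1 and 2. The Mrc1/Pf4 bar of the KO library (0.286%) is the tallest of its panel, and its interval overlaps those of the WT libraries (0.127 and 0.147%).

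The Mrc1/Pf4 members carried further genes of border-associated macrophages that the split did not use. Of 6379 genes measured, 123 were higher in Mrc1/Pf4 members than in remaining members in each library (1.93%) and 63 were lower (0.988%). On the border macrophage list 9 of 11 measured genes were higher, Mrc1 and Pf4 among them by construction. Lyve1, a hyaluronan receptor, had 480, 521 and 332 CPM in the Mrc1/Pf4 members of the KO library and WT libraries 1 and 2, and no UMI in any remaining member. Against a floor of 3 UMIs per library, Lyve1 was at least 136-fold higher in the KO library and at least 79.1-fold and 32.4-fold higher in the WT libraries.

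F13a1, Dab2 and Stab1 of the same list were likewise higher. F13a1, which encodes a chain of coagulation factor XIII, had 805, 860 and 831 CPM in Mrc1/Pf4 members, against 7.04, 110 and 27.3 CPM in remaining members. The endocytic adaptor Dab2 had 957, 1563 and 1413 CPM in Mrc1/Pf4 members, against 41.1, 114 and 47.8 CPM in remaining members. The scavenger receptor Stab1 had 443, 648 and 668 CPM, against 68.1, 68.1 and 51.2 CPM. No library of either subset overlapped with the other for these 3 genes. The folate receptor gene Folr2, the chemokine gene Ccl24 and the endothelin receptor gene Ednrb, the last picked out after its values were seen, also stood higher in each library. Ccl24 had 241, 200 and 236 CPM in Mrc1/Pf4 members, against 5.87, 24.2 and 10.2 CPM in remaining members.

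Iron handling and some signalling genes followed the border set. Blvrb, a biliverdin reductase, and Slc40a1 were the 2 of 8 iron and haem genes that stood higher. Blvrb had 363, 545 and 382 CPM in Mrc1/Pf4 members, against 57.5, 83.5 and 30.7 CPM in remaining members. Gas6, a bridging ligand that tags dying cells for the receptors Axl and Mertk, had 215, 436 and 454 CPM, against 42.3, 147 and 58.0 CPM. The factors Maf and Tfec were the 2 of 12 measured myeloid transcription factors that stood higher. Maf had 661, 612 and 454 CPM in Mrc1/Pf4 members, against 274, 207 and 157 CPM in remaining members.

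Microglia genes leaned the other way. On the microglia list 7 of 14 genes were lower in Mrc1/Pf4 members, among them P2ry12, Tmem119, Sall1, Siglech, Olfml3 and Slc2a5, and none was higher, with a median log2 ratio of -1.58. The Sall1 call rested on 2 UMIs in WT library 2, and Sall1 was not called between members and other cells. P2ry12, the purine receptor that guides microglial processes, had 61.3, 60.6 and 49.97 CPM in Mrc1/Pf4 members, against 194, 174 and 147 CPM in remaining members. Olfml3, a secreted matrix protein, had 19.6, 24.2 and 4.54 CPM in Mrc1/Pf4 members, against 121, 163 and 178 CPM in remaining members. In each library the Mrc1/Pf4 members lay below the remaining members for both genes, but their P2ry12 RNA was not absent. Summed over P2ry12 and Tmem119, 29 of 44 Mrc1/Pf4 members of the KO library had a UMI, against 35 of 46 remaining members. The subsets also differed in neural progenitor RNA. Its 7 measured genes had a median log2 ratio of -2.05 in Mrc1/Pf4 over remaining members, with none called. Members high in that RNA, by a limit given with the genotype comparison, numbered 8, 0 and 2 among Mrc1/Pf4 members. Among remaining members they numbered 24, 9 and 8. Their part in the differences between the subsets was not tested.

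Genes of the common macrophage programme were not called between the subsets. Csf1r had 436, 691 and 600 CPM in Mrc1/Pf4 members, against 363, 688 and 598 CPM in remaining members. Cx3cr1 had 542, 678 and 368 CPM, against 715, 584 and 533 CPM. None of the 17 measured receptors and adaptors passed 2-fold in every library. Trem2 was lower in Mrc1/Pf4 members in each library, at 187, 194 and 209 CPM against 366, 483 and 365 CPM, without passing 2-fold in every library.

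**Figure D3:**
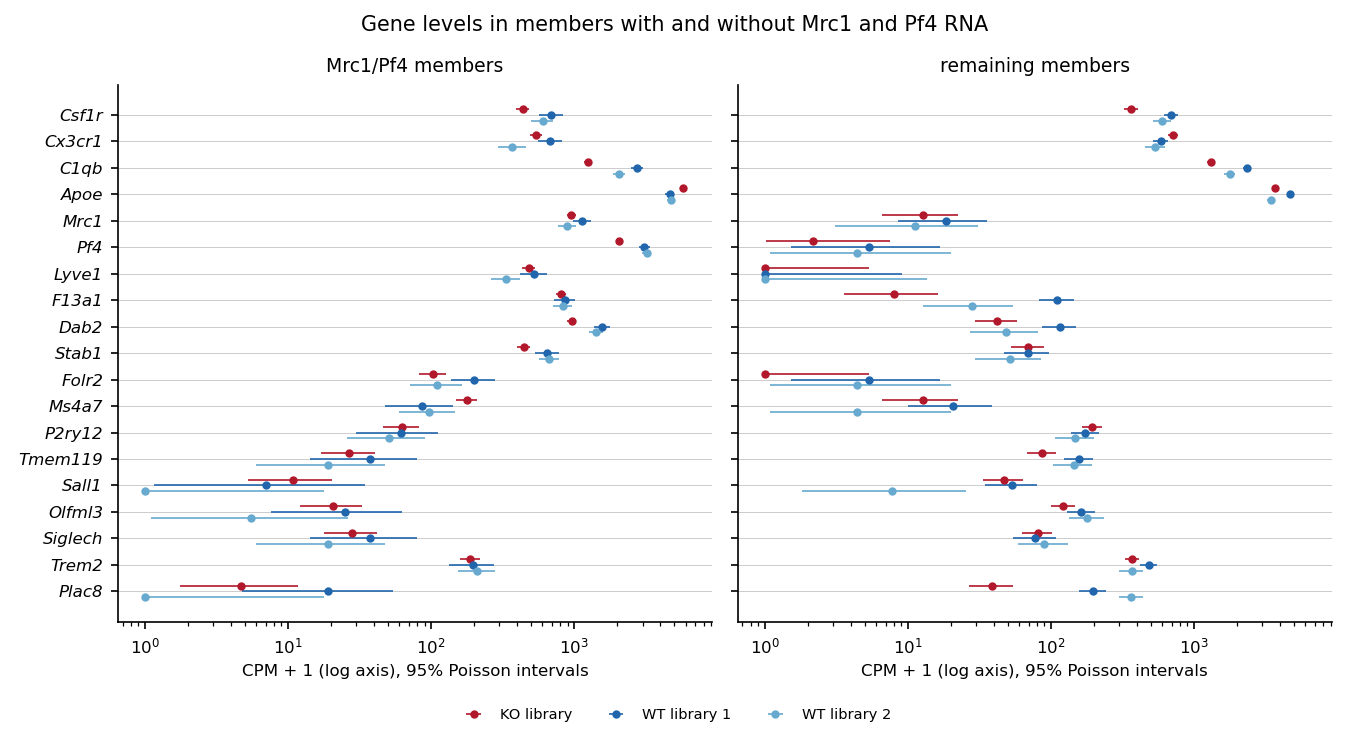
Levels of macrophage and microglia genes, as CPM plus 1 on a log axis with exact 95% Poisson intervals, in Mrc1/Pf4 members on the left and remaining members on the right, for the KO library and WT libraries 1 and 2. Lyve1 is at 480, 521 and 332 CPM on the left and at 0 on the right, P2ry12 is at 61.3, 60.6 and 49.97 CPM on the left and 194, 174 and 147 CPM on the right, and Csf1r is at 436, 691 and 600 CPM on the left and 363, 688 and 598 CPM on the right.

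The chemokine and cytokine list was split between the subsets. Of 14 measured genes 4 were higher in Mrc1/Pf4 members, namely Ccl7, Ccl24, Il18 and, by construction, Pf4, and 2 were lower, Il1a and Il1b, with a median log2 ratio of 1.06. Il1a had 1.23, 0 and 0 CPM in Mrc1/Pf4 members, against 15.3, 59.3 and 44.4 CPM in remaining members, and Il1b had 3.68, 0 and 0 CPM, against 15.3, 50.5 and 47.8 CPM. Of the lists of early myeloid cells, 2 of 3 measured monocyte genes and 2 of 2 granulocyte and mast cell genes were lower in Mrc1/Pf4 members. Serpine2, a protease inhibitor picked out after its values were seen, had 14.7, 6.06 and 0 CPM, against 155, 163 and 95.6 CPM. The remaining members were not of a single kind. C1qa, C1qb and C1qc were all at 0 in 2 members of each library, so these 6 cells were selected on Fcer1g and Tyrobp alone. Among them, 2 KO members and 1 member of WT library 2 had 27, 29 and 31 UMIs of Mpo, which encodes the myeloperoxidase of granulocyte precursors. Ccr2, the receptor that draws monocytes out of the blood, had 2 or more UMIs in 1 KO member, against 2 and 5 members of WT libraries 1 and 2. The 9 monocyte genes summed to 76.2 CPM in KO members, against 221 and 306 CPM in WT members.

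Members of both subsets carried cell cycle RNA. None of the 15 S phase genes and none of the 15 G2/M genes was called between members and other cells, with medians of -0.09 for each list, or between the subsets. Markers of dividing cells did not order the genotypes one way. After thinning each cell to 4000 UMIs, Top2a, a topoisomerase, was detected in 45.2% of 84 KO members, against 65.8% of 38 and 53.8% of 26 WT members. Mki67, the gene of the Ki-67 antigen, was detected in 52.4% of KO members, against 34.2% and 34.6% of WT members, and in 34.7% of other KO cells, against 34.2% and 34.5% of other WT cells. Pcna, the sliding clamp of DNA replication, was detected in 47.6% of KO members, against 21.1% and 15.4% of WT members, and in 41.4% of other KO cells, against 19.0% and 18.5% of other WT cells. Without thinning Top2a was found in 52 of 90 KO members, against 29 of 39 and 21 of 33 WT members, Mki67 in 56, against 24 and 17, and Pcna in 63, against 19 and 12. As summed CPM Top2a had 408 in KO members, against 456 and 349 in WT members, and Mki67 had 268, against 255 and 197, so no order is read from these shares. At 4000 UMIs the G2/M genes averaged 8.77 UMIs in a KO member, against 10.9 and 9.31 in WT members, and 9.73 in other KO cells, against 10.8 and 10.97 in other WT cells. Thinning left out 6 KO members and 1 and 7 WT members that were too shallow.

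The ligands of macrophage receptors lay in different cell classes. Il34 had no UMI in any member and at most 0.85 CPM in any other cell class. Csf1 was found in collagen-rich cells, at 17.3 CPM in the KO library against 21.4 and 17.8 CPM in the WT libraries, and in Ttr-rich cells, at 10.2 CPM against 10.98 and 9.16 CPM. In members Csf1 had 21.6 CPM in the KO library, against 6.45 and 1.95 CPM. Cxcl12, the chemokine ligand of Cxcr4, lay in collagen-rich cells, at 141 CPM in the KO library against 230 and 242 CPM. Members themselves were the highest class for Gas6 and for Tgfb1, which encodes the growth factor that microglia depend on. Tgfb1 had 115 CPM in KO members, against 232 and 248 CPM in WT members, and less than 36 CPM in every other class.

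The YFP reporter allowed a look at stage within the WT libraries. Cells with a YFP UMI point to the E11.5 embryos, while a cell without one can come from either stage. A YFP UMI was found in 23 of 39 members of WT library 1, 59.0% (42.1 to 74.4%), and in 15 of 33 members of WT library 2, 45.5% (28.1 to 63.6%). Other cells had a YFP UMI in 65.6% and 65.9%. Cells with 5 or more tdTomato UMIs, which point to the E12.5 embryos, had a YFP UMI in 17.95% and 18.7%, and at most 30 and 19 YFP UMIs. No doublet caller was run, so these shares can hold mixed droplets as well as stray YFP RNA. Median depths were 15020 and 14904 UMIs in members and 16579.5 and 16467.5 UMIs in the cells with 5 or more tdTomato UMIs. The tdTomato RNA itself had a UMI in 6 members of each WT library, and in none 5 or more.

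Both subsets were present among members with a YFP UMI. In WT library 1, 8 of 23 members with a YFP UMI were Mrc1/Pf4 members, against 4 of 16 without one. In WT library 2 the numbers were 7 of 15 with and 5 of 18 without. At 2 or more YFP UMIs, remaining members with YFP fell from 15 to 14 in WT library 1 and from 8 to 4 in WT library 2. The Mrc1/Pf4 members stayed at 8 and 7. The split in WT library 2 thus rests in part on members with a single YFP UMI, which cannot be told from stray RNA. Csf1r had 636 and 591 CPM in members with a YFP UMI, against 797 and 604 CPM in members without. The monocyte gene Ccr2 had 1 and 3 UMIs in members with a YFP UMI, against 21 and 26 UMIs in members without. Plac8, a gene of young myeloid cells, had 76.3 CPM (52.2 to 108) and 22.9 CPM (7.44 to 53.5) in members with a YFP UMI, against 299 CPM (228 to 385) and 343 CPM (279 to 416) in members without. Plac8 intervals did not overlap in either library, though Plac8 RNA was held by 8 and 7 members only.

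Between genotypes no microglia gene was called. A gene was called when KO members differed from each WT library by 2-fold in the same direction and its counting interval overlapped neither. Of 6627 genes measured, 363 were higher in KO members (5.48%) and 146 were lower (2.20%), with a median log2 ratio of 0.04. Without cells whose barcode was in another library 437 were higher and 177 lower. None of the 14 microglia genes and none of the 16 measured receptors and adaptors, Fcer1g and Tyrobp of the rule among them, was called. Their median log2 ratios were -0.22 and -0.49. Of the border macrophage list only Ms4a7, a membrane protein of the MS4A family, was higher, at 92.4 CPM in KO members against 37.1 and 42.9 CPM in WT members.

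Genes of neural cells and red cells stood among those higher in KO members. Whether their RNA came from other cells or from the members themselves was not tested. Of the 363 higher genes, 80 were among the 486 called lower in members than in other cells by the 2-fold rule. Those 486 were 6.81% of the 7140 genes measured in that comparison. Members were taken as high in neural RNA when the 8 neural progenitor genes exceeded 25% of the median of other cells in their library, a limit of 3.82 UMIs per 10000 in the KO library, against 3.33 and 3.34 in the WT libraries. These were 32 of 90 KO members, 35.6% (25.7 to 46.3%), against 9 of 39, 23.1% (11.1 to 39.3%), and 10 of 33, 30.3% (15.6 to 48.7%), of WT members. Of them, 24 KO members, and 9 and 8 WT members, were remaining members. After thinning to 4000 UMIs Nes, of this list, was detected in 54.8% of remaining KO members, against 34.5% of other KO cells. In WT library 1 the shares were 46.2% and 36.4%. Sox2 and Fabp7 were in 21.4% and 23.8% of remaining KO members, against 66.3% and 56.1% of other KO cells. The part of the members' own Nes RNA in this limit was not tested. Members high in neural RNA held 57.9% of the UMIs of KO members, against 30.4% and 26.2% of the UMIs of WT members. More than 40000 UMIs were found in 11 KO members, against 2 and 0 WT members. Without the members high in neural RNA, members numbered 58 in the KO library, 0.377% of cells (0.287 to 0.487%), against 30, 0.317% (0.214 to 0.452%), and 23, 0.282% (0.179 to 0.423%), in WT libraries 1 and 2.

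**Figure D4:**
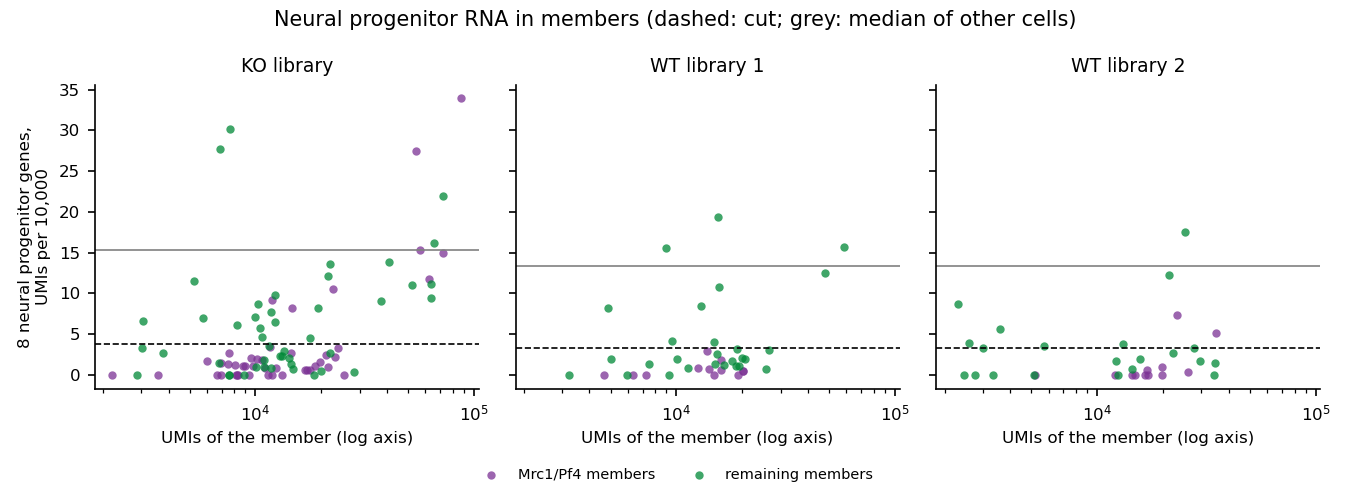
Each point is a member, with its total UMIs on a log x axis and the UMIs of 8 neural progenitor genes per 10000 on the y axis, in the KO library and WT libraries 1 and 2. The dashed line is the limit for members high in neural RNA, and the grey line is the median of other cells (15.3, 13.3 and 13.3); the points furthest right lie above the dashed line and most belong to the KO library.

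Neural genes stood among the higher calls with and without those members. Fabp7, a lipid-binding protein of radial glia, had 246 CPM in KO members, against 49.97 and 27.3 CPM in WT members, and 4 of 7 measured neural progenitor genes were higher. Without the members high in neural RNA, a limit set on the same 8 genes, Fabp7 had 31.3 CPM in KO members, against 4.63 and 7.93 CPM in WT members, and was not called. Other neural genes, picked out after their values were seen, were still called. Nfib, a transcription factor of the developing brain, had 569 CPM in KO members, against 143 and 87.7 CPM in WT members, and without those members 86.9 CPM, against 6.95 and 10.6 CPM. Sox11, a factor of young neurons, had 202 CPM in KO members, against 30.1 and 34.3 CPM in WT members, once those members were left out. Map1b, a microtubule-associated protein of neurons, had 98.3 CPM in KO members, against 13.9 and 18.5 CPM, in the same set. Without the members high in neural RNA 5364 genes were measured, with 164 higher (3.06%) and 86 lower (1.60%), of which 115 and 69 were also called over all members. Of the 363 higher genes 144 were at least 2-fold higher in other KO cells too, and of the 146 lower genes 34 were lower there. Pgk1 is of that kind, a glycolysis gene at 550 CPM in KO members against 24.2 and 11.7 CPM, with a log2 ratio of 4.86 in members and 4.68 in other cells.

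All 7 haemoglobin genes were higher in KO members, with a median log2 ratio of 4.78, and of 3.81 without the members high in neural RNA. A few cells held most of it. The members' haemoglobin UMIs were 10931 in the KO library, of which 6818 and 1530 lay in 2 members, against 127 and 125 in the WT libraries. The median member had 17.5 haemoglobin UMIs in the KO library, against 3 and 4 in the WT libraries. Other cells summed to 15762 CPM of haemoglobin in the KO library, against 16736 and 17931 CPM, where the KO value was the lowest of the 3. The part of red cell RNA in other differences between the members was not tested.

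The 12 higher genes with the largest ratio that were not as high in other KO cells were Ccdc152, Prnp, Palld, Miat, Tagln3, Kalrn, Eomes, Mfap4, Gadd45g, Fam214a, Dpysl3 and Elavl2. Tagln3, Dpysl3 and Elavl2 encode cytoskeletal and RNA-binding proteins of young neurons, and Eomes a factor of their precursors. On the neuron list neither of the 2 measured genes was called, with a median log2 ratio of 1.37. Palld, an actin-bundling scaffold, was called over all members, without those high in neural RNA and within each subset. Its log2 ratio in other cells was 0.96, just under 2-fold. Palld overlaps a gene on its own strand and another on the opposite strand. It had 56.4 CPM in KO members against 3.22 and 3.90 CPM, from 94 UMIs in 31 KO members, and 2 UMIs in each WT library. Ccdc152 had 44 UMIs in KO members and none in WT members, at least 9.97-fold higher against a floor of 3 UMIs over the WT members, but it overlaps Sepp1 on the opposite strand and its count is uncertain. Prnp had 35 UMIs in KO members and none in WT members, at least 7.93-fold higher, and it overlaps another gene on its own strand. Miat, Kalrn, Eomes, Mfap4 and Elavl2 overlap other genes too. Igf1, a growth factor of macrophages, had 78.6 CPM in KO members, against 35.5 and 23.4 CPM, and was the only one of 13 measured genes of the lipid and axon tract list to be called. Without the members high in neural RNA 3 of 13 were higher, Igf1, Fabp5 and Abca1.

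Macrophage genes stood among the lower genes. Of the 146 lower genes, 79 were among those higher in members than in other cells, and of the 363 higher genes, 2 were. Over all 7140 genes measured in that comparison, 771 were (10.8%). Without the members high in neural RNA, which held more of the UMIs in KO members, 27 of 86 lower genes were. The median log2 ratio of the 5 selecting genes was -0.60 over all members and -0.03 without those high in neural RNA. That of the 11 measured myeloid factors was -0.54 and 0.11, and that of the 14 microglia genes was -0.22 and -0.18. The part of those members in the count of 79 was not tested. Cebpb, a factor that drives inflammatory genes in macrophages (chr2:167688915-167690418, plus strand, mm10), had 49.2 CPM in KO members, against 274 and 271 CPM in WT members. Its UMIs were in 48 of 90 KO members, and in 33 of 39 and 25 of 33 WT members, so the difference was not held by a few cells. The log2 ratio of Cebpb was -2.45 over all members, -1.96 without those high in neural RNA, -2.17 within Mrc1/Pf4 members and -2.79 within remaining members, and it was -0.93 in other cells. It was called lower in each of these sets of members. Cebpb overlaps Tmem189 on the opposite strand.

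Irf5, another factor of inflammatory macrophages (chr6:29526625-29541871, plus strand, mm10), had 24.6 CPM in KO members, against 85.4 and 91.6 CPM in WT members, and was called lower in the same 4 sets. Capg, which caps actin filaments, was as broad, and was picked out after its values were seen. Capg had 39.0 CPM in KO members, against 155 and 179 CPM in WT members. Spi1 was lower over all members, with a log2 ratio of -1.36, but at -0.75 without the members high in neural RNA it was no longer past 2-fold. Of 11 measured myeloid factors these 3, Spi1, Cebpb and Irf5, were lower and none was higher.

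**Figure D5:**
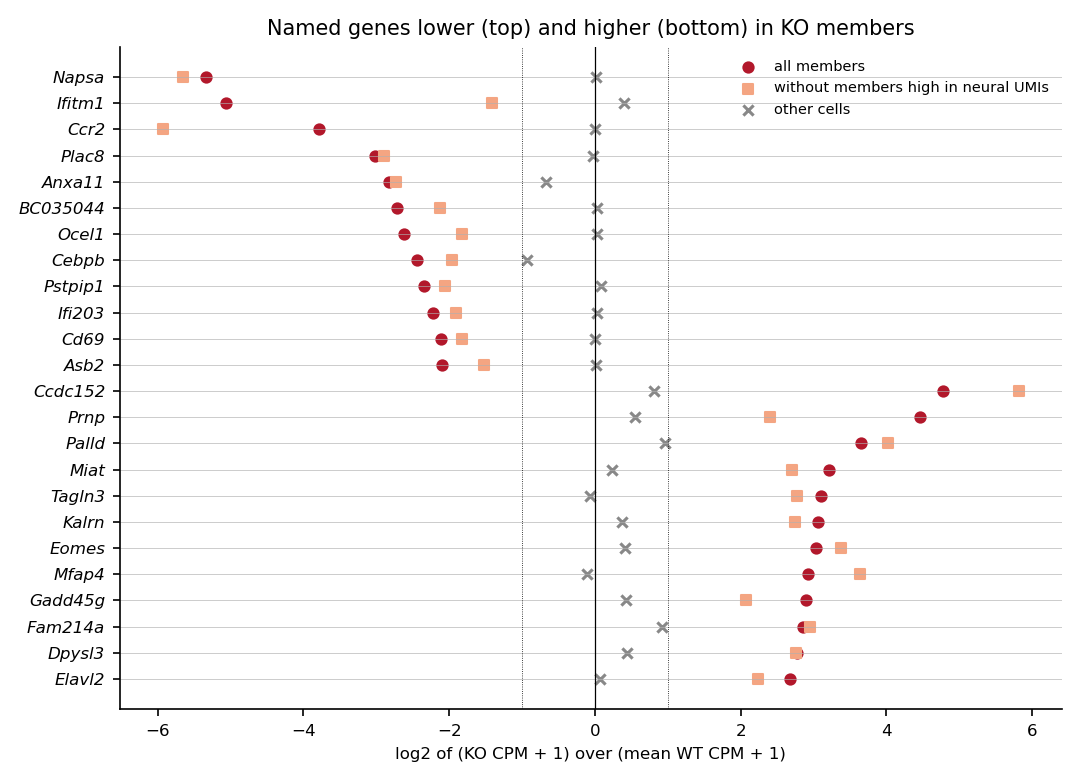
Log2 ratio of KO over WT CPM, with 1 CPM added to each, for the 12 lower genes at the top and the 12 higher genes at the bottom, in all members (circles), in members without those high in neural RNA (squares) and in other cells (crosses), with dotted lines at 2-fold. Cebpb lies at -2.45 and -1.96 in members and -0.93 in other cells; Ifitm1 lies at -5.06 in all members and -1.41 once members high in neural RNA are left out.

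Some of the largest ratios rested on few cells. Ifitm1, an interferon-induced membrane protein, had 1.80 CPM in KO members, against 168 and 17.5 CPM in WT members, and its 104 UMIs in WT library 1 lay in 2 members. Without cells whose barcode was in another library its log2 ratio turned to 0.50. Ccr2 had 2.40 CPM in KO members, against 35.5 and 56.5 CPM, from 1 KO member and 3 and 5 WT members. Plac8 had 21.0 CPM in KO members, against 148 and 207 CPM, from 6 KO members and 8 and 7 WT members. These 2 were the lower genes among 3 measured monocyte genes. Napsa, an aspartic protease, had no UMI in KO members and 43 over WT members, at least 21.1-fold lower against a floor of 3 UMIs, from 4 and 5 WT members. BC035044 was broader, at 11.4 CPM in KO members against 80.6 and 79.9 CPM, from 13 KO members and 23 and 14 WT members. It overlaps other genes, as do Napsa, Anxa11, Ocel1, Ifi203 and Asb2.

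Immediate early genes, which cells raise within minutes of stress or dissociation, were also lower in places. Over all members 4 of 13 were lower in KO members, namely Fosb, Dusp1, Zfp36 and Btg2, with a median log2 ratio of -1.03. Without the members high in neural RNA these 4 and Jund were lower and Nfkbia was higher. Within remaining members 5944 genes were measured, with 209 higher (3.52%) and 130 lower (2.19%), and 7 of the 13 were lower, with a median of -1.54. Within Mrc1/Pf4 members 5595 genes were measured, with 229 higher (4.09%) and 69 lower (1.23%), and 2 of the 13, Jun and Atf3, were higher, with a median of -0.06. Across the subsets 111 genes were higher in both and 36 were lower in both. Fos had 279 CPM in KO members, against 527 and 616 CPM in WT members, with a log2 ratio of -2.01 within remaining members and -0.04 within Mrc1/Pf4 members. In other cells the ratio of Fos was 0.71 and that of Fosb was 1.59. The difference between the subsets was not tested.

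The other macrophage lists held few calls. Lower calls were found on the engulfment, iron and tissue ligand lists, namely Rac2, Slc11a1 and Tgfb1, and Ifitm3 on the interferon list. Cd34 on the list of early progenitor genes and Prtn3 on that of granulocytes and mast cells were lower too. All 6 calls were lost without the members high in neural RNA, where the log2 ratios were -0.51 for Rac2, -0.98 for Slc11a1, -0.56 for Tgfb1, -1.51 for Ifitm3, -1.26 for Cd34 and -1.18 for Prtn3, and Slc40a1 of the iron list was then called higher. Ctsh was the only one of 17 lysosome genes to be called, with and without those members, at 100 CPM in KO members against 281 and 240 CPM in WT members. None of the 14 measured chemokine and cytokine genes was called over all members. Without those high in neural RNA 4 of 15 were higher, namely Ccl12, Ccl24, Cxcl10 and Tnf, together with 3 of 11 border macrophage genes, Mrc1, Lyve1 and Ms4a7. All 31 Cxcl10 UMIs of KO members lay in 1 cell. In that comparison 36 of 58 KO members were Mrc1/Pf4 members, against 12 of 30 and 10 of 23 WT members. Within Mrc1/Pf4 members none of those 4 chemokine genes and none of the 10 measured border macrophage genes was called. Of the cell cycle lists Pcna was higher over all members and without those high in neural RNA, and also in other cells, with a log2 ratio of 1.53. Cdk1 and Aurkb were lower over all members, with log2 ratios of -1.18 and -1.08, and at -0.80 and -0.76 without those high in neural RNA neither was called.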

How the data were processed

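RNA was measured in single cells of 3 libraries, 1 from Gmnc-/- embryos and 2 from the wild-type suspension. The deposited matrices hold raw UMI counts per gene and barcode, and no normalization was applied by the authors per the file headers and values. They were made with Cell Ranger 3.1.0 on mm10 per the submitters' processing notes, while the file headers name version 6.0.0 for the KO library and 3.1.0 for the WT libraries. An annotation version was not given in the sources used here. Barcodes started at 500 UMIs.

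Genes were joined by Ensembl ID over 27040 shared features, leaving out 961 of the WT libraries and 5245 of the KO library. Counts were summed per library and set of members and divided by the summed UMIs (CPM). Depth per cell and per library is given in the results. Exact Poisson and binomial intervals are at 95% and treat UMIs as independent molecules. No doublet caller was run: the limits on Ttr, neuron genes and collagens removed some mixed droplets, and results are also given without members high in neural progenitor RNA. With 1 sample per genotype no p-value was computed. Some genes are not reported here.

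The members and gene lists were chosen with earlier results of these data known. Named genes were the selecting genes, Gmnc, members of 29 gene lists, the 20 genes with the largest ratio of members over other cells in the lowest library, and the 12 higher and 12 lower genes with the largest ratio between genotypes that were not past 2-fold in the same direction in other cells. Mitochondrial, ribosomal protein, haemoglobin, sex-linked and predicted genes were left out of the last sets. The size rule was tested on simulated data. Alternatives were TMM scaling (edgeR 4.0.16), median-of-ratios scaling, other filters and pseudocounts, thinning to 4000 UMIs, equal weight per cell, other limits of the rule, and leaving out each WT library. Scripts used Python 3.11.15, numpy 2.4.6, scipy 1.17.1, pandas 2.3.3 and matplotlib 3.10.9.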

Additional observations from a re-analysis of the deposited data

How the results depend on the processing

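The share ratio of KO over WT, 1.43, lay between 1.22 and 2.20 over the settings tried. It was highest, at 2.20, with the mitochondrial limit at 5%. The 363 genes higher and 146 lower in KO members became 164 and 86 without members high in neural RNA, 212 and 92 with each cell weighted equally, 63 and 32 with cells thinned to 4000 UMIs, which leaves fewer UMIs to call from, and 178 and 89 without members above 40000 UMIs. Within Mrc1/Pf4 members they were 229 and 69, and within remaining members 209 were higher. Leaving out a WT library gave 533 to 609 higher and 227 to 251 lower genes, since fewer comparisons then have to hold. The 771 genes higher in members than in other cells became 1206 with no filter on low counts. The log2 ratio of Ifitm1 turned to 0.50 without cells whose barcode is in another library, a setting chosen after seeing the data, as were the settings on subsets, on members above 40000 UMIs and on C1q. The cause was not tested. TMM and median-of-ratios scaling moved the median ratio of all genes by -0.04 and -0.07 (log2). Of 16 values that answer a comparison and moved, all are printed here, and 54 stayed within 1.5 times or their counting interval. Among the further values followed, 589 moved, 1 reversed and 1274 stayed, and not all of these are printed. No paired analysis was possible because the KO group has 1 library and no result comes from a test. For 14 of the genes called between genotypes, 238 values were recomputed, and 1 changed sign, that of Ifitm1; the other called genes were not followed one by one. Depth limits genes under 20 UMIs.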
